A study of Mus musculus with 24 samples.

Results

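Among the 595 probes that the study listed as brain-specific lncRNAs, 148 had a strong signal in brain and none that the scanner called well above background in the 3 cell lines, and these 148 probes are described here. A probe was taken when the scanner called its spot well above background on none of the 9 cell line arrays and when its mean level over the 3 brain arrays was 0 or more. The level is the log2 intensity minus the 75th percentile of all 60804 transcript probes of the same array, so a level of 0 is as bright as the 75th percentile. The probes named Gap43, Snap25 and Mobp were left out by name. Of the other listed probes, 89 were bright enough in brain but were called well above background on at least 1 line array, 256 had no call in the lines but a level below 0, and 99 failed on both counts. The members were thus chosen by their values in brain and in the lines on these same arrays, and the list itself had been made from the 15 tissue arrays, so the differences of brain from the other groups are given as a description and without a test.

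Brain, heart, kidney, liver and testis came from male ICR mice aged 8 weeks. The lines were F9, a mouse embryonal carcinoma line, and GC-1 and GC-2, immortalised mouse lines of spermatogonial and spermatocyte origin, all grown with fetal bovine serum, with retinoic acid omitted so that F9 stayed undifferentiated. Each of the 8 groups had 3 one-colour arrays. The methods call the 3 samples biological replicates, but the labels tie no array to an animal or culture, so the spread given here may in part be technical, and the small number of arrays limits its precision. All RNA was total RNA of whole tissue or of a culture, so that fewer cells of a type and less RNA per cell cannot be told apart. Between 18257 and 37393 transcript probes per array were called well above background, fewest on the 3 liver arrays, and no spot was saturated. Replicate 1 of every group lay on slide 1. The later replicates of heart and of the lines lay on slide 3, and those of the remaining tissues, brain included, on slide 2, so that brain shared a slide with heart and the lines in replicate 1 only.

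Long noncoding RNAs are transcripts without a known protein product, and many are made in only a few tissues. Brain is among the tissues richest in them, and many lie beside, antisense to or within genes for transcription factors, receptors and synaptic proteins. Some are hosts of microRNAs, which are cut from the longer transcript. F9 cells resemble early embryo cells, and GC-1 and GC-2 resemble stages of the male germ line, so none of the lines is neural. Of the fixed brain markers, probes were named for 8 genes, all in the list of brain-specific lncRNAs, so that they give no separate check of the brain label. Of these, Gap43, Snap25 and Mobp were left out by name. The neuronal splicing factor Rbfox3 was a member, but at 0.03 with an SD of 0.88 it was not separated from the threshold. Neuronal Map2 (1.31), endothelial Slco1c1 (1.49) and astrocytic Slc7a10 (0.61) were brighter in brain but were called on 3, 1 and 1 line arrays. The probe of the microglial gene Siglech reached a level of -0.94 in brain. The markers thus assign the members to no cell type.

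Sequences were held for 14 of the 148 member probes, all among the 17 members with the highest brain levels, and 13 of them are printed here because most share a short stretch of letters although they were designed for different genes. Each is a 60-base array probe, 5′ to 3′ in the orientation of the study's probe annotation, with the 7-letter word TCTTCCC in capitals where it occurs.

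The 8 member probes that hold the word are these.
Phkg1: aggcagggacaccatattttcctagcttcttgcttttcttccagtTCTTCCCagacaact
AK144610: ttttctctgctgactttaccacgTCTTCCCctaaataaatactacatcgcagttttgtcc
XLOC_004126: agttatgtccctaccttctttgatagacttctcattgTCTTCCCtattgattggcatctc
Gm13645: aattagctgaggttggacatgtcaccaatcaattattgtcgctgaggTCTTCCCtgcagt
Vbp1: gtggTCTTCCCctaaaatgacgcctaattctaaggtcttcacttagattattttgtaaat
mouselincRNA0696: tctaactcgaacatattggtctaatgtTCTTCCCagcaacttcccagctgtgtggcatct
humanlincRNA2052: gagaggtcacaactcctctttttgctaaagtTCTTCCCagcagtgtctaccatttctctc
humanlincRNA0691: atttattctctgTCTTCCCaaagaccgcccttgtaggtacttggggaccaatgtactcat
The member probes without it are these.
AK021280: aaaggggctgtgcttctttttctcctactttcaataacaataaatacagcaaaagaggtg
C130071C03Rik: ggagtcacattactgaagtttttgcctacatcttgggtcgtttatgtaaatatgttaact
AK082203: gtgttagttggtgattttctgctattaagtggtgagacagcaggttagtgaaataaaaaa
AK081247: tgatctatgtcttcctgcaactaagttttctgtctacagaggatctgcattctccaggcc
AK021055: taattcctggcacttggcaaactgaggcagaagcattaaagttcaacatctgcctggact

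The 8 probes with the word belonged to transcripts at 8 separate places in the genome (GRCm38). The Phkg1 transcript lay at chr5:129866983-129870087 and overlapped exons of the gene for the catalytic subunit of muscle phosphorylase kinase in sense. AK144610 (chr3:65829116-65872281) was antisense within an intron of Lekr1, and Gm13645 (chr4:152352198-152353641) was antisense to exons of Chd5, which encodes a chromatin remodeller of neurons. The Vbp1 transcript at chrX:75514317-75521755 overlapped exons of a gene for a prefoldin subunit, part of a chaperone of actin and tubulin. The other 4 were intergenic, XLOC_004126 at chr11:56665907-56696288, mouselincRNA0696 at chr17:28785012-28797011, humanlincRNA2052 at chr11:7432154-7435592 and humanlincRNA0691 at chr12:54129700-54144167. Among the 14 member probes with a sequence, no pair shared more than 13 bases in a row. In lower case with the word in capitals, the longest common run of the AK144610 and Vbp1 probes was gTCTTCCCctaaa, and that of the mouselincRNA0696 and humanlincRNA2052 probes was gtTCTTCCCagca, both of which contain the word.

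The same word was then counted in all probes of brain-expressed lncRNAs for which a sequence was held. These were 1553 probes with brain levels from 2.15 upwards, a part of that table, so no enrichment was tested. The word was picked after these probes had been searched for shared letters, and its counts are therefore a description. It occurred in 47 of the 1553 (3.03%), and in 8 of the 14 members (57.1%). A total of 84 of the 1553 had a mean brain level at least 5-fold above the mean of every other group. The word was in 31 of these 84 (36.9%) and in 16 of the other 1469 (1.09%). Read the other way, 31 of the 47 probes with the word (66.0%) and 53 of the 1506 without it (3.52%) stood at least 5-fold above every other group in brain. Of the 84, 62 were outside the list of brain-specific lncRNAs, and 19 of these 62 (30.6%) held the word. On the other strand the letters read GGGAAGA, which occurred in 11 of the 1553 (0.708%), in none of the 84 and in none of the 14 members. The overlapping word GTCTTCC was in 29 of the 84 (34.5%) and in 9 of the rest (0.613%), and the longer GTCTTCCC was in 27 (32.1%) and in 5 (0.340%).

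The brain-rich probes with the word also had an order of the 3 brain arrays in common, which the rule did not use. In all 8 members with the word, brain replicate 2 was below the mean of replicates 1 and 3, by 0.32 to 0.60 on the log2 scale (median -0.51). In Phkg1 the 3 brain levels were 5.17, 5.06 and 5.59, in Vbp1 they were 3.98, 3.50 and 4.07, and in XLOC_004126 they were 4.27, 3.85 and 4.52. The 6 members without the word ranged from -0.80 in AK021055 to 0.50 in AK083197, with 3 below 0. Among the 84 brain-rich probes, replicate 2 was the lower one in 30 of the 31 with the word (median -0.39) and in 18 of the 53 without it (median 0.14). AK081247, whose probe holds the first 6 letters of the word but not the seventh, had a value of -0.41. Those 6 letters, with or without the seventh, were in 35 of the 84. Replicate 2 was lower in 32 of these 35, and their values ran from -0.66 to 0.846, so a probe with the 6 letters alone could also go the other way. Outside these 84, replicate 2 was lower in 7 of the 16 probes with the word (median 0.02, from -0.56 to 0.50). It was lower in 6 of the 9 probes there with GTCTTCC. With the longer GTCTTCCC it was lower in 5 of 5 (median -0.415, from -0.561 to -0.0755). Outside the brain-rich probes the order thus depended on which word was taken. The part of probe sequence in the brain levels of these 8 members was not tested. No sequence was held for the remaining 134 members, of which 46 had replicate 2 below the mean of the other 2 brain arrays, and 13 had a value within the range of the 8.

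**Figure D1:**
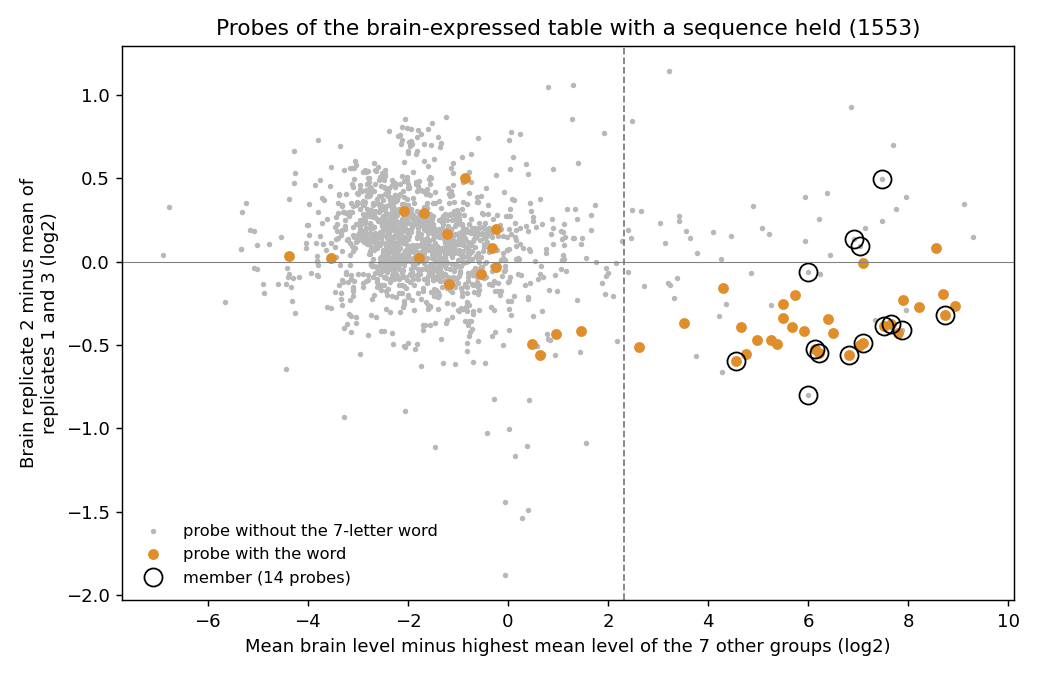
Each point is 1 of 1553 brain-expressed lncRNA probes with a sequence held, by how far its mean brain level stood above the highest mean of the 7 other groups (log2, x axis) and by brain replicate 2 minus the mean of replicates 1 and 3 (log2, y axis). Orange points hold the 7-letter word, rings mark the 14 members, and the dashed line is 5-fold; to its right 30 of the 31 orange points lie below 0 on the y axis.

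Over all 148 members the brain level ranged from 0.01 to 5.27 with a median of 1.22. A total of 10 members had a level of 4 or more, 29 of 3 or more and 85 of 1 or more, and 63 lay below 1. The spread over the 3 brain arrays had a median SD of 0.34, against 0.22 for the 15151 probes that were well above background on all 3 brain arrays at a level of 0 or more, and 0.29 for the listed probes that were equally bright but called in a line. Gdap1 (SD 0.03), Gm26777 (0.04) and 9130024F11Rik (0.05) varied least. Most variable were mouselincRNA1671, with levels of -0.75, 0.65 and 1.29, Rbfox3 with 0.01, -0.84 and 0.93, and AK044026 with -0.04, 1.38 and 1.56. The median level of the members was 1.03 on brain replicate 1, 1.30 on replicate 2 and 1.44 on replicate 3. Replicate 1 was the lowest of the 3 arrays in 76 members (51.4%), compared with 31.0% of the 15151 bright brain probes. It was also the only brain array on its slide, so that slide and replicate cannot be told apart here.

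**Figure D2:**
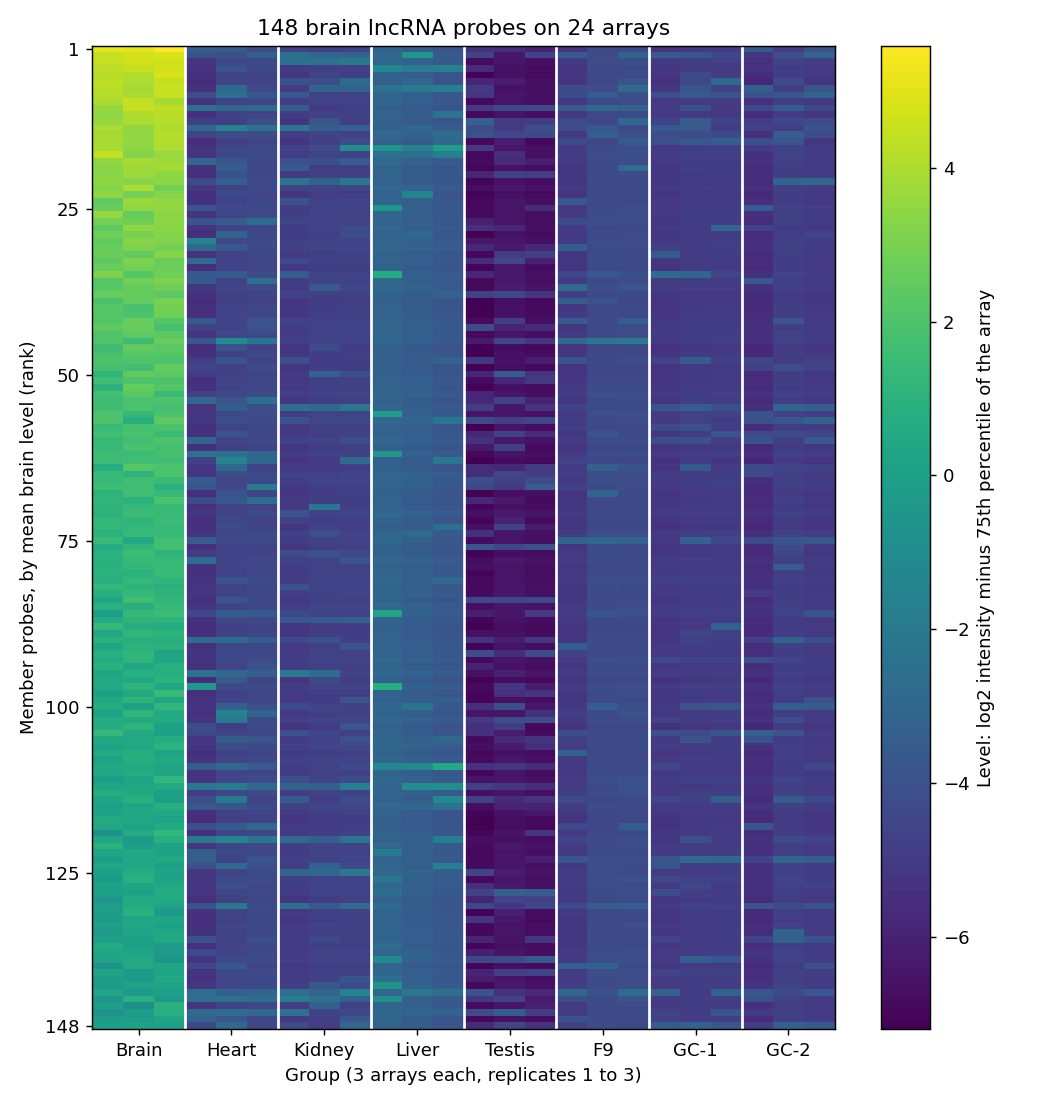
Colour gives the level (log2 intensity minus the array's 75th percentile) of the 148 members, 1 per row in order of mean brain level, on the 24 arrays, 3 columns per group. The brain columns are bright from top to bottom, from 5.27 in the first row to 0.01 in the last, and the other 21 columns are dark, with single brighter cells in heart, kidney, liver and testis.

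Phkg1 had the highest brain level of the set, 5.27 ± 0.28 (SD, n = 3). Its processed intensities on the brain arrays were 5539, 3971 and 7048. None of its 21 other arrays was called well above background, and its levels there ran from -3.21 on a liver array to -5.93 on a testis array, so the groups did not overlap. In 145 of the 148 members all 3 brain arrays lay above all 21 others, as they did in 5.43% of all probes; the exceptions were AK044026, Gm10421 and XLOC_026180, each with 1 liver array above its lowest brain array. A member that was not measured above background elsewhere has only a bound there, for which brain was set against the higher of the probe's own level and the lowest level called well above background on each array. By this bound Phkg1 was at least 206-fold higher in brain than in F9, 281-fold than in GC-1 and 306-fold than in GC-2, and at least 94.3-fold higher than in liver.

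AK021280 followed with 4.69 ± 0.23, from levels of 4.44, 4.75 and 4.87. It is a clone at chr5:70958563-70960393, classed as intergenic in the study's annotation, but within the RefSeq span of Gabra2, which encodes a subunit of the GABA-A receptor. It was called well above background on 1 kidney and 1 liver array, the latter at a level of -0.45, and stood at least 52.0-fold higher in brain than in liver. C130071C03Rik had 4.61 ± 0.13, with levels of 4.46, 4.70 and 4.66. This lncRNA gene lies at chr13:83721381-83741308, 54302 bases from Mef2c, a transcription factor of neurons and muscle. AK082203 had 4.49 ± 0.25, from 4.26, 4.45 and 4.76. AK081247, which lies 373 bases from the calcium-binding protein gene Tesc, had 4.38 ± 0.40, from 4.20, 4.10 and 4.83. Neither was called above background on any array outside brain.

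From AK021280 onwards, neighbours in this order did not differ beyond the spread of the brain arrays. Levels of different probes cannot be set against each other as amounts of RNA, so the order is one of signal only. AK144610 had levels of 4.32, 3.99 and 4.41, XLOC_004126 followed at 4.21 ± 0.34, and Gm13645 had 4.15, 3.94 and 4.49. All 3 hold the word, and all 3 were lowest on brain replicate 2. AK083197 had 3.99, 4.45 and 3.92 and AK049808 had 3.57, 4.45 and 4.28, with replicate 2 highest in both. XLOC_004126 lay 315283 bases from Gria1, the gene of a glutamate receptor subunit, as its nearest coding gene. AK049808 was called on 1 heart array and 2 testis arrays. AK134972 with 3.41, 4.07 and 4.24 and Grm5 at 3.90 ± 0.31 closed the group of 12. The Grm5 probe bears the name of a metabotropic glutamate receptor, and its 3 brain levels were 3.56, 3.98 and 4.17, all above its single called array elsewhere, a testis array at -3.28.

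**Figure D3:**
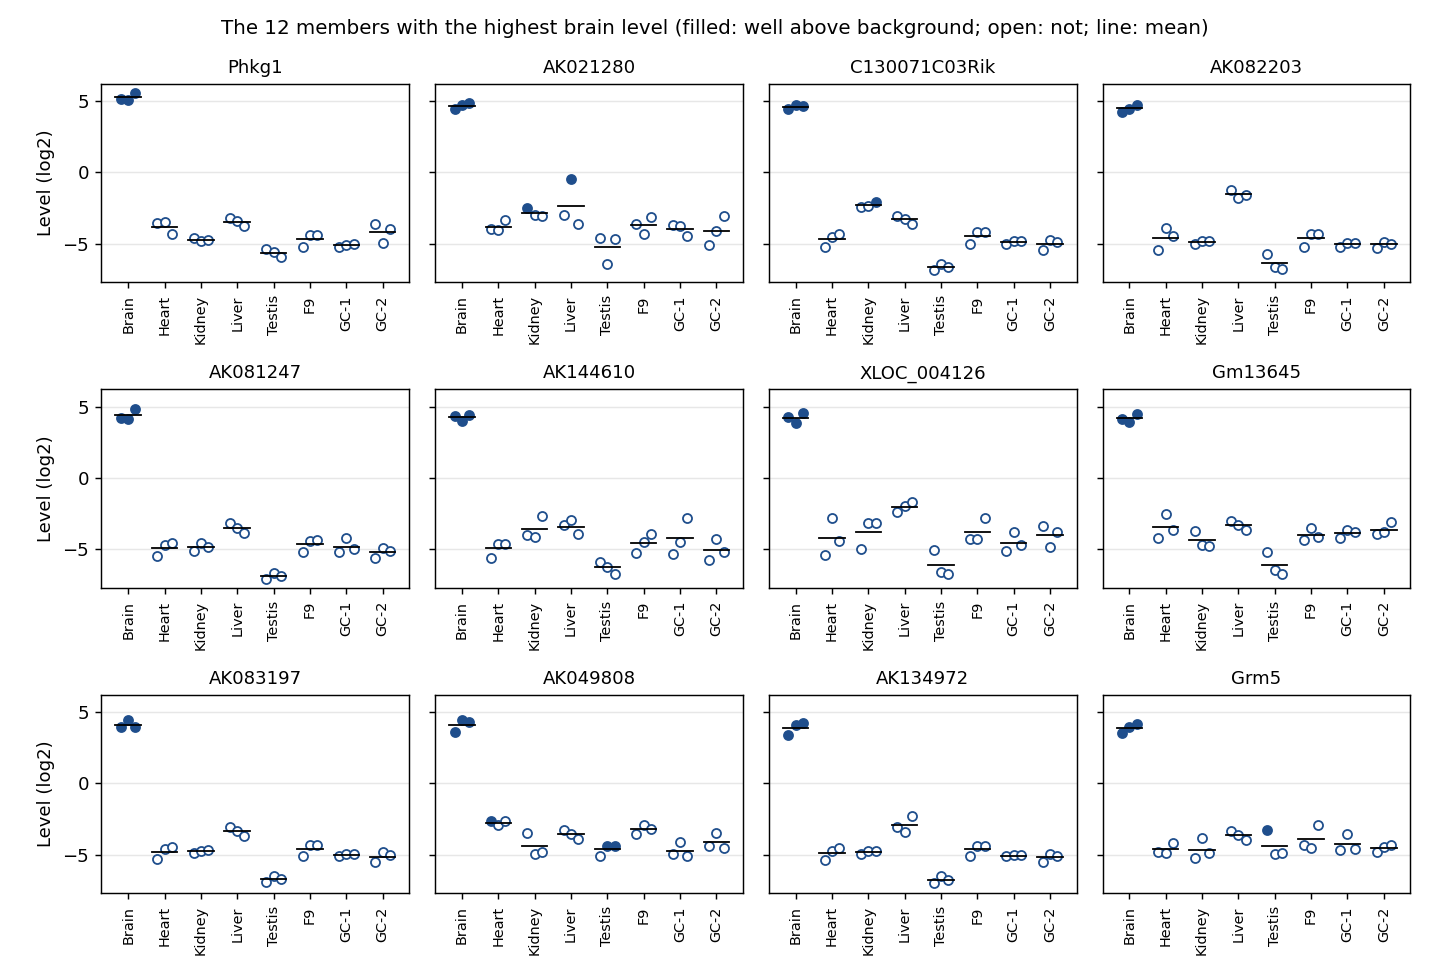
Levels (log2) of the 12 members with the highest brain mean on all 24 arrays, with filled points for spots well above background, open points for others and a line at each group mean. In every panel the 3 brain points lie above 3, and the points of the other 7 groups lie below 0, most of them open.

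Over the members, the bound of the fold of brain over each line had a median of 12.4 for F9, 17.0 for GC-1 and 18.5 for GC-2. The smallest bounds were 5.36, 7.33 and 7.98, so that all 148 stood at least 5-fold above each line. This was largely fixed by the rule, which asked for a minimum brain level and for no call in the lines. For such probes the bound rests mainly on the dimmest level called on each line array, so nothing is read from the count of 148. Of the members, 88 stood at least 10-fold above all 3 lines, and 6 at least 100-fold. Over the tissues the median bounds were 15.2 for heart, 15.2 for kidney, 5.71 for liver and 57.8 for testis. Liver gave the lowest bound of all 7 groups for each of the 148 members, and its arrays also had the highest floors, with the dimmest spots called above background at levels of -1.61 to -0.98, compared with -4.87 to -4.44 on the testis arrays. A bound of 5-fold or more over all 7 groups was met by 84 members. After Phkg1, the largest such bounds were those of C130071C03Rik (59.6), AK082203 (54.2), AK021280 (52.0) and AK081247 (50.8).

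**Figure D4:**
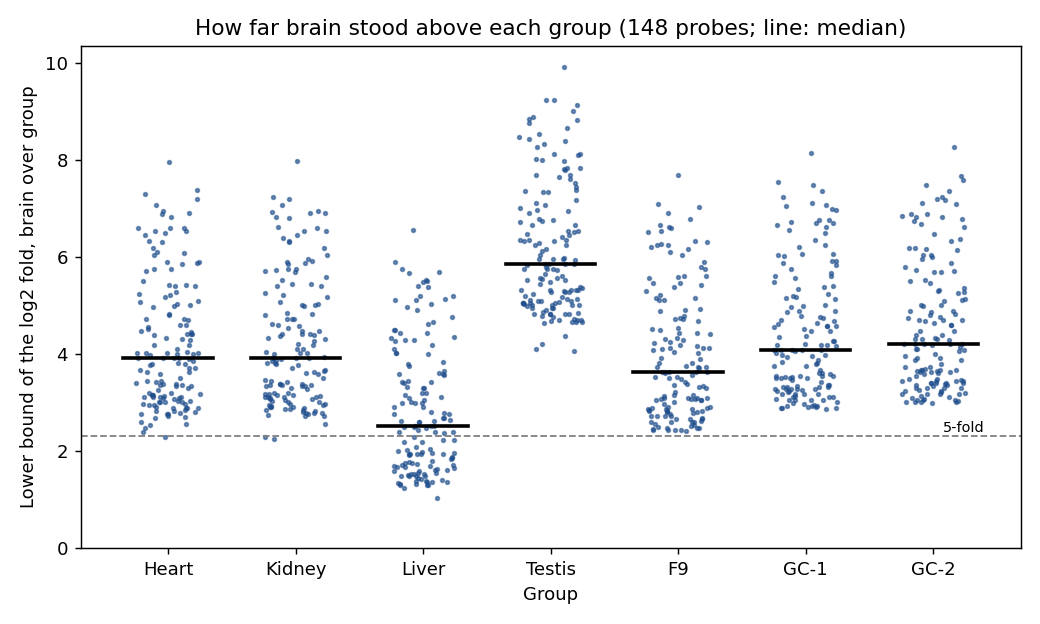
Lower bound of the log2 fold of brain over each of the 7 other groups, 1 point per member (148 per group), with a line at the median and a dashed line at 5-fold. The points of liver sit lowest, with a median of 5.71-fold, and those of testis highest, with a median of 57.8-fold.

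The fit across all probes gave the background for these differences. Probes were counted as called when brain was at least 5-fold higher with a limma adjusted p of at most 0.05. Over heart 147 of the 148 members were called, and so were 5.89% of all 60804 probes. The same count was 148 over kidney (6.71% of all probes), 146 over liver (6.47%) and 148 over testis (15.1%). All 148 were called over F9 (7.96%), over GC-1 (8.26%) and over GC-2 (8.55%). In all 7 comparisons at once, 145 members and 2.21% of all probes were called, and the members made up 10.8% of the 1341 probes so called. These contrasts chose the members, and nothing is read from the counts. The median probe of the array lay between -1.23 (liver) and 1.06 (testis) in these differences, whereas the median member lay between 4.54 (liver) and 7.57 (testis). The members not called were Syk over heart, with a fitted log2 difference of 2.28, and XLOC_026180 and AK048002 over liver, with 1.13 and 2.08. After normexp background correction with an offset of 50, which lifts dim spots, 146 members were called over testis (5.73% of all probes), 54 over liver (2.77%), 65 over heart (2.13%) and 69 over kidney (2.32%). Over F9, GC-1 and GC-2 the counts were then 67 (2.69%), 81 (2.84%) and 86 (2.88%).

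The scanner's calls in the other tissues were only in part fixed by the choice of members. The study's list asked for absence outside brain, and no member was called well above background on all 3 arrays of another tissue, but single arrays could be. In 101 of the 148 members (68.2%) no heart, kidney, liver or testis array was called well above background, 24 had a single such array and 9 had 3 or more. The same counts were not made over all probes, so nothing is read from them. Heart had 23 members with a call (15.5%), testis 19 (12.8%), kidney 13 (8.78%) and liver 12 (8.11%). Among the 25632 probes on the array without a call in any line, the share was 12.1% for heart and 32.5% for testis. For kidney and liver it was 10.3% and 9.51%. These shares are not a like measure, since they count probes called on all 3 arrays of the tissue, as no member was. Such probes numbered 1150 for heart, 5990 for testis, 1222 for kidney and 687 for liver. Called on 1 or 2 arrays, as members could be, were 1954, 2344, 1412 and 1751 of the 25632, in the same order. By this measure their share was lower than that of the members in each of these tissues. No deficit of the members is therefore read from the unlike shares, and the difference was not tested. The calls were uneven among replicates, with 16, 9 and 1 members called on the 3 heart arrays and 14, 5 and 10 on the testis arrays. Vbp1 and AK048002 had the most called arrays, 5 each. Vbp1 was called on 2 heart, 1 kidney and 2 testis arrays and AK048002 on 2 heart, 1 kidney and 2 liver arrays. XLOC_002623 had 4, and AK049808, Syk, Gm13446, Nrcam, Card9 and humanlincRNA0691 had 3 each. Of these 9, only Vbp1, AK049808 and humanlincRNA0691 were among the 29 members with a brain level of 3 or more.

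A weaker flag of the scanner, positive and significantly above background, was not used by the rule. By this flag 90 of the 148 members had at least 1 line array with signal and 58 had none. Neither count was made over all probes, so they do not tell how unusual the members are. On all 3 arrays of a line the flag was set for 18 members in GC-2, 14 in GC-1 and 8 in F9, and for 40 in testis, 25 in heart, 17 in kidney and 5 in liver. As shares of the members these were 12.2%, 9.46% and 5.41% for GC-2, GC-1 and F9, near the 9.29%, 8.99% and 6.19% of the 25632 probes without a stronger call in the lines. For testis, heart and liver they were 27.0%, 16.9% and 3.38%, beside 38.5%, 16.6% and 5.94% of those probes. The 17 members in kidney stood beside 13.7% of them. In the tissues these sets are unlike, since those probes include some called well above background on all 3 arrays, as no member was. Such probes numbered 5990 for testis, 1150 for heart, 1222 for kidney and 687 for liver, so no deficit of the members is read from the tissue shares. AK021280 and Nrcam carried the weaker flag on all 9 line arrays. A total of 12 members carried it on none of the 21 arrays outside brain, a count also not made over all probes. Silence in the lines thus rested on the stricter flag for 90 members and held by both flags for 58.

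**Figure D5:**
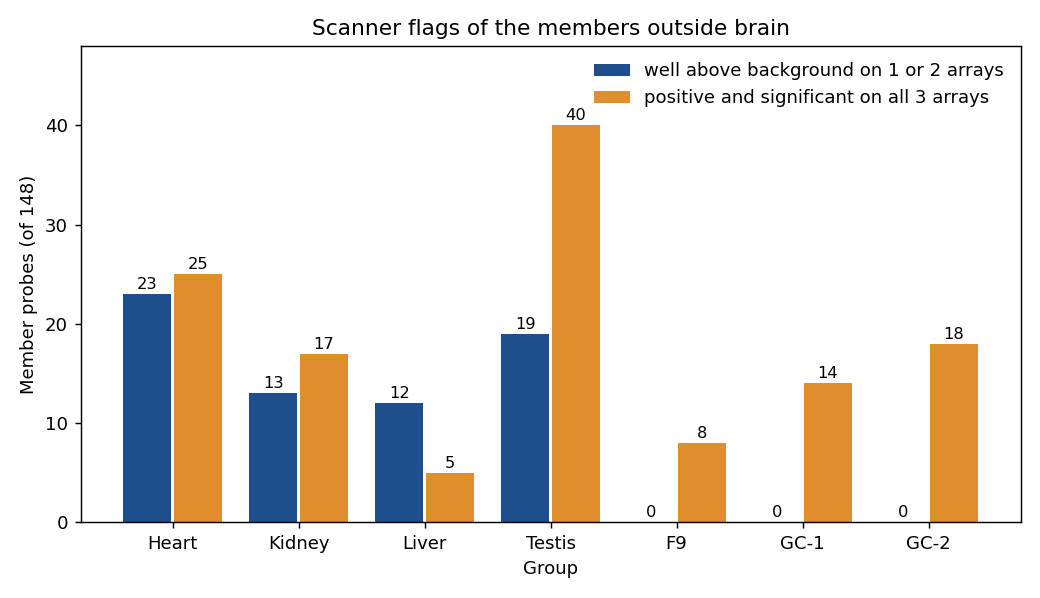
Number of members (of 148) called well above background on 1 or 2 arrays of a group (blue) and flagged positive and significant on all 3 arrays of it (orange), for the 7 groups outside brain. The blue bars are 0 in the 3 lines by the rule, and the orange bars run from 5 in liver to 40 in testis.

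By name, 71 members carried a gene symbol, 61 the number of a GenBank clone, 8 a lincRNA number and 8 that of an assembled transcript. A total of 62 were matched to a RefSeq gene (GRCm38.p6), 13 by accession, 44 by symbol and 5 by an older symbol, of which 32 were lncRNA genes and 30 were protein-coding genes. A probe with the symbol of a coding gene stands for a noncoding transcript of that locus, and whether it also reads the mRNA is not given in the sources used here.

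The gene groups that follow were chosen with earlier results of these data known, and all their symbols, apart from some imprinted ones, were in the list. Of all 595 listed probes 148 were members, so nothing is read from the number of members in a group. Of the 9 lncRNA symbols looked up as lying near transcription factor genes, 4 were members, with 6 probes. However, 1 of the 4, 2610100L16Rik, lies 254254 bases from the nearest such gene in the annotation, Bhlhe22. C130071C03Rik had the strongest of them, with a second probe at 3.38 ± 0.09. Its gene spans the hairpin of Mir9-2 at chr13:83738814-83738885, and the transcript of the stronger probe (chr13:83738881-83741307) begins within the last bases of that hairpin. The mature miR-9 sequences are shown because miR-9 is a microRNA of neural progenitors and neurons, with the seed, bases 2 to 8, in capitals; the arrays did not measure them.
mmu-miR-9-5p: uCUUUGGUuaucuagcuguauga
mmu-miR-9-3p: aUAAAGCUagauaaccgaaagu
2610100L16Rik, the host gene of miR-124-2 (RefSeq Mir124-2hg, chr3:17789921-17800071), had levels of 2.59, 2.55 and 2.38 in brain and no called array elsewhere. miR-124 is a microRNA of differentiated neurons. Both probes of 2610017I09Rik (RefSeq Pantr1), 943 bases from the neural factor gene Pou3f3, were members at 1.32 ± 0.31 and 0.94 ± 0.28. Dlx6os1, which overlaps Dlx6, a homeobox gene of forebrain interneurons, reached 0.19 ± 0.27. The other 5 symbols were not members, Dlx1as because it was called on all 9 line arrays (brain level 3.05), 2610316D01Rik because both of its probes were called in a line, Runx2 for both reasons, and Six3os1 and Isl1 for levels of -2.13 and -1.23.

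Of the 11 imprinted lncRNA symbols, 7 were in the list and 2 were members. D7Ertd715e lies within Snhg14, the long transcript of the Prader-Willi and Angelman region that runs antisense to Ube3a, and had brain levels of 2.15, 2.62 and 2.14 with no called array elsewhere. A230073K19Rik had 0.38, 0.93 and -0.03 and was called on 1 heart and 1 liver array. The brightest imprinted lncRNA of the list, Meg3 at 4.44, was called on 2 line arrays and was therefore not a member, and all 4 probes of Rian had a level below 0.

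Receptors and channels contributed 4 of 12 symbols. Besides Grm5 these were Gria2, a subunit of the AMPA receptor, at 1.69 ± 0.28, P2rx3, an ATP-gated channel of sensory neurons, with levels of 1.47, 1.08 and 1.94, and Grin2a, a subunit of the NMDA receptor, at 0.08 ± 0.64. None of these 3 had a called array outside brain. Grin1, Glrb, Gpr83 and Unc80 were bright enough but were called on 2 to 4 line arrays.

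Synaptic adhesion and organisation gave 7 of 16 symbols. The leucine-rich repeat genes Lrrtm3 and Lrrtm1, which encode postsynaptic adhesion proteins and lie inside the spans of the catenin genes Ctnna3 and Ctnna2, had levels of 2.14 ± 0.53 and 2.11 ± 0.21. Nrxn3, a presynaptic neurexin, had 0.68 ± 0.69, and the cell adhesion gene Nrcam 0.24 ± 0.38. Bai3, an adhesion receptor, had 0.22 ± 0.66, and the clathrin adaptor Snap91 had 0.19 ± 0.25. In 4 of these 6 the SD of the brain arrays was larger than the level itself, so they were not separated from the level threshold of 0.

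Of the remaining groups, Rbfox3 was the only member among 4 genes of the neuronal cytoskeleton and nucleus, Phkg1 among 2 phosphorylase kinase subunits, and Fxyd7, a brain regulator of the sodium pump, among 4 transport genes (2.74 ± 0.34). Of 11 genes used in most cells, 5 were members. These were Vbp1, the glycosyltransferase gene Large at 3.20 ± 0.29, the Hippo kinase gene Stk3 at 0.93 ± 0.37, Rab3gap1 at 0.66 ± 0.57 and Chchd7 at 0.01 ± 0.10. Among 5 immune genes, Cd6 (0.64 ± 0.62), Syk (0.38 ± 0.57), the TCR-beta chain (0.66 ± 0.43) and Card9 (0.02 ± 0.73) were members, all with levels below 1. Syk was called on 2 heart arrays and 1 kidney array, and Card9 on 1 heart and 2 testis arrays.

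Beside the members named so far, several matched lncRNA genes overlapped or adjoined genes of neuronal channels and receptors in the annotation. Gm13629, at 3.15 ± 0.52, spans chr2:66440880-66547472 and overlaps Scn9a, the gene of a sodium channel of sensory neurons. AI504432 (2.89) lies 1375 bases from the potassium channel gene Kcna3, Gm9962 (1.87) overlaps the GABA-A receptor gene Gabra5, and Gm3510 (0.34) adjoins the calcium channel subunit gene Cacna2d1. The closest members of different name were neighbours on chromosome 5. AK021055 (chr5:130844507-130844887) and AK082203 (chr5:130845246-130847333) were 359 bases apart on the same strand, within the span of Caln1, which encodes a neuronal calcium-binding protein. Their 3 brain levels were 4.42, 3.22 and 3.61 for AK021055 and 4.26, 4.45 and 4.76 for AK082203, so that the order of the arrays differed between these neighbours.

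Different probes of one gene were compared by detection and by their order over the arrays. All 3 probes of 5330434G04Rik were members, at levels of 1.11, 0.41 and 0.15, and this X-linked lncRNA gene (chrX:105372994-105391754) spans the hairpin of Mir325. The probes of 2610017I09Rik agreed in the order of the brain arrays, with replicate 1 lowest in both. Member probes of the other such genes did not all agree. In 5330434G04Rik replicate 1 was lowest in the brightest probe (0.84, 1.31 and 1.18). It was highest in the others, with 0.57, 0.46 and 0.20 and with 0.66, 0.08 and -0.29. In C130071C03Rik replicate 2 was highest in the brighter probe (4.46, 4.70 and 4.66) and lowest in the dimmer (3.44, 3.28 and 3.41). In 1500004A13Rik the lowest array differed. In 1500004A13Rik, 2 probes were members (2.30 and 1.49) and another was at -2.15. C130071C03Rik likewise had another probe at -0.54, Gm13629 a second at -0.03 and 9130024F11Rik a second at -1.79. Of 5 probes of A530058N18Rik, 1 was a member at 1.11, 3 were below 0 and 1 was called on 2 line arrays.

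The 89 listed probes that were bright in brain but called in a line differ from the members by the rule itself, and the other differences are given without a test. Their brain levels ranged from 0.03 to 6.45 with a median of 0.98, compared with 1.22 in the members, and 45 of the 89 (50.6%) had no called array in another tissue, compared with 68.2% of the members. On all 3 arrays of a line, 20 of the 89 were called in F9, 19 in GC-2 and 12 in GC-1. Of the 89, 24 were matched to coding genes and 22 to lncRNA genes.

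The level threshold passed through closely spaced values. Card9 and Chchd7 were just inside, at 0.02 and 0.01, and AK008378, C130030K03Rik and the second Gm13629 probe were just outside, at -0.01, -0.01 and -0.03. Their SDs over the brain arrays ran from 0.06 to 0.73, so the edge of the set lay within the spread between replicates.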

How the data were processed

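RNA of 5 mouse tissues and 3 cell lines was labelled with Cy3 and hybridised by the authors to an Arraystar mouse lncRNA array (Agilent), 1 sample per array. The labels name Trizol and the methods an RNeasy kit for the extraction. The deposited values used were the processed spot intensity of each array, which is background-subtracted but not normalised between arrays, and the deposited scanner flags (well above background; positive and significant). The deposited table of values held the same intensities. The authors normalised and selected transcripts in GeneSpring; the fold and p-value columns of their supplementary tables were not used.

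Here log2 intensities were scaled to each array's 75th percentile over 60804 transcript probes, with control spots left out. No floor or filter was set. Brain was compared with 4 tissues in 1 limma fit (15 arrays) and with 3 lines in another (12 arrays), with p-values of each comparison adjusted by Benjamini and Hochberg's method across all probes, in R 4.3.3 with limma 3.58.1. Other steps used Python 3.11.15, pandas 2.3.3 and numpy 2.4.6, and the fit was tested on simulated data. Lower bounds are the brain mean against, per array, the higher of the probe's own level and the dimmest level called well above background. Alternatives were other scalings, quantile normalisation, normexp, a filter on dim probes, other level thresholds and flags, a slide or replicate block, the methods' own test and each array left out in turn. Scanner files held no mean signal column, so normexp used the median signal and median background.

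The members, gene groups and lists were chosen with earlier results of these data known. Genes were named by rule, namely the 12 highest brain levels, the 5 largest bounds, the edges of the level threshold, all members of the gene groups, genes with several member probes, the 5 members called most often outside brain, and the extremes of the SD; the members in the paragraphs on sequence, overlap and neighbouring genes were added after their values were seen. Positions and miRNA sequences were from RefSeq (GRCm38.p6) and from the study's probe annotation, which was held for 14 of 148 members (9.46%), so checks of length or GC content over the set are void. The probe sequence of 1 of the 14 and the values of 1 member are not reported here.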

Additional observations from a re-analysis of the deposited data

How the results depend on the processing

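The set depended most on the scaling and the flag. Scaling to the 75th percentile of probes well above background on all arrays left 9 members and moved the median brain level from 1.22 to -2.89, because that percentile is brighter. A level threshold of 1 left 85 members and one of -1 gave 261, and asking for the weaker flag to be absent in the lines left 58. By the weaker flag, 17 in place of 101 members had no signal in another tissue. Normexp gave a median brain level of 0.94, and lowered the probes called over heart to 1297, kidney 1410, liver 1681, testis 3484, F9 1638, GC-1 1728 and GC-2 1751, with 65, 69 and 54 members called over heart, kidney and liver and 67, 81 and 86 over the lines. With the percentile over detected probes, 5959 probes were called over testis, 7938 over F9 and 7826 over GC-2. In that scaling the share of calls that were higher in brain went from 48.4% to 76.2% for F9, 53.1% to 76.0% for GC-1, 55.4% to 79.4% for GC-2, 52.7% to 63.8% for heart, 53.7% to 68.6% for kidney and 35.3% to 59.8% for liver, but from 55.1% to 38.9% for testis. For liver it was also 58.9% after quantile normalisation, 52.9% after normexp and 48.2% with the filter on dim probes, and it fell to 17.9% without Brain replicate 2 and to 18.2% without Liver replicate 3, where 18057 and 17553 probes in place of 7212 were called lower in brain. For the words added after the sequences were seen, GGGAAGA was in 0 of the 14 member probes and GTCTTCCC in 5. The causes were not tested. Leaving out 1 array at a time gave 148 to 158 members, a median brain level of 1.19 to 1.36, 101 to 107 members without a call in another tissue, and 144 to 146 members called over liver. Without the 8 members that hold the word, 140 members had a median level of 1.20.

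With replicate number as a block (paired fit), 3584 probes were called over heart, 4082 over kidney, 3934 over liver, 9165 over testis, 4837 over F9, 5022 over GC-1 and 5204 over GC-2. Deviations of same-numbered samples had a median correlation of 0.17 (from -0.26 to 0.55, 58 of 84 above 0.1), compared with -0.12 for different numbers (39 of 168). Deviations from a group mean cancel out within the group, so the values for different numbers tend to the opposite sign and are no separate reference. The first replicates of all groups also shared a slide, so slide and number cannot be told apart in these correlations. All 3 same-number correlations were above 0.1 for brain with liver, testis and GC-2, but not for the other 4 comparisons, so the numbers were not taken to pair the samples in either fit. Neither this block nor a slide block nor the methods' own test moved a count of calls by over 1.5 times.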
